A study of Mus musculus with 2 samples.

Results

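The genes described here drive DNA synthesis and chromosome segregation: 24 mitosis genes and 24 DNA replication genes, 48 of the 55536 annotated genes of the gene tables. They were taken by name from a list of S-phase and mitotic genes. The rule that names them uses no measured value, but the set was chosen with earlier results of these data known. All 48 were matched by gene identifier to the symbols that the transcript tables carry. They were measured in 2 total RNA sequencing libraries of adrenal gland from female B6CASTF1/J mice, an F1 hybrid with a CAST parent, aged 25 days. Replicate 1 and replicate 2 form a single untreated group, and each started from 300 ng of RNA. The labels differ on whether the libraries came from separate animals, so each SD or p-value reflects how these libraries differ, and that spread may be technical.

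A dividing cell first loads the MCM helicase onto replication origins, which is called licensing, and then fires those origins in S phase. The replication genes are known targets of the E2F transcription factors, which retinoblastoma family proteins hold in check in resting cells. The mitosis genes peak later, in G2 and M, and many carry a promoter element called CHR, through which the MuvB complex acts together with B-MYB and FOXM1. In the adrenal gland, dividing cells are known to include progenitors under the capsule that renew the steroid-producing cortex.

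The classes differed in how often their promoters held the motifs of these regulators. The RefSeq promoter table (build GRCm38.p6) held a window of 250 bases before to 50 after the start for 39 members, 20 mitosis and 19 replication genes. The RefSeq start lay within 50 bases of the start of the leading protein-coding transcript for 31 of them. For Mcm7 it lay 539 bases away. Each member has 1 window here, the nearest to that transcript, while the shares of all windows count 32851 windows of 27025 genes. The motifs, searched on both strands, were the E2F core TTTNNCGC, the CHR as TTTGAA or TTTAAA, and the CCAAT box as CCAAT. A CHR stood in 17 of 20 mitosis windows (85%) and in 5 of 19 replication windows (26.3%), against 27.6% of all 32851 windows in the table. The E2F core stood in 1 of 20 mitosis windows (5%) and in 10 of 19 replication windows (52.6%), against 5.17% of all windows. CCAAT boxes were common in both, at 17 of 20 mitosis windows and 14 of 19 replication windows, against 37.4% of all windows. A match describes the letters and is not shown to be a bound site. With the upstream bases alone, a CHR remained in 12 mitosis and 4 replication windows and an E2F core in 1 and 7.

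Below are the 250 bases before the start of 5 genes, 3 mitosis genes with CHR matches and 2 replication genes with E2F matches, chosen to show these layouts. They are RefSeq sequences of build GRCm38.p6, written 5′ to 3′ on the strand of the gene, with bases of the E2F core, the CHR and the CCAAT box in capitals. Reverse-strand matches read as the complement, so ATTGG is a CCAAT box. Mki67 lies at chr7:135716380-135716629 on the minus strand, Plk1 at chr7:122159185-122159434 on the plus strand and Cdk1 at chr10:69352913-69353162 on the minus strand. Mcm6 lies at chr1:128359706-128359955 on the minus strand and Rfc3 at chr5:151651209-151651458 on the minus strand.
Mki67: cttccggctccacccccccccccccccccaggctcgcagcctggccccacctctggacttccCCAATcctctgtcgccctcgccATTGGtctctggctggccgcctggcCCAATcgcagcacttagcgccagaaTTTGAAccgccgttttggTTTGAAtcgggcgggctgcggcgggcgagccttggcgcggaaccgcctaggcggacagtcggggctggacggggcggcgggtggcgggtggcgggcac
Plk1: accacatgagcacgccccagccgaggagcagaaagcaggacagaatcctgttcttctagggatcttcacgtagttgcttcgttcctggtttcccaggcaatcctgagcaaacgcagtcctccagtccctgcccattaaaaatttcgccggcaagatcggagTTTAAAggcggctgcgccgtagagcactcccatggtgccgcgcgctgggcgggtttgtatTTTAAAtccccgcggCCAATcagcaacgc
Cdk1: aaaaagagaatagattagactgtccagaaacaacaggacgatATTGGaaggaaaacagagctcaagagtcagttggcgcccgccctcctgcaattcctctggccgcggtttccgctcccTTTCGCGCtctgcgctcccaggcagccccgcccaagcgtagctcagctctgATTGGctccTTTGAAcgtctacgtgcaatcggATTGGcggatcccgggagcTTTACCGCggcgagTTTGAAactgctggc
Mcm6: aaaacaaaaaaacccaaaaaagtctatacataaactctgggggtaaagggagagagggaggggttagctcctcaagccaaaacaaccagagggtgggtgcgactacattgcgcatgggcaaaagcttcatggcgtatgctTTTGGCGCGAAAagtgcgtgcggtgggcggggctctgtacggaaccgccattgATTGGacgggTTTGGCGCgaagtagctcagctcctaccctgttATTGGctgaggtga
Rfc3: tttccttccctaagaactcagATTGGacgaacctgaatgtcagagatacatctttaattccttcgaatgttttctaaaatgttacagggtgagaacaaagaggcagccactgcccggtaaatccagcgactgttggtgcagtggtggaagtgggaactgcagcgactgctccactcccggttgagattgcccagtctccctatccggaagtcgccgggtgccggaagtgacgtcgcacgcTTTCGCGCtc

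In the Mki67 window, 3 CCAAT boxes precede 2 CHR matches, both TTTGAA, that begin 116 and 98 bases before the start. The Plk1 window holds 2 upstream CHR matches of the form TTTAAA, which reads alike on both strands. Cdk1, the kinase that drives mitotic entry, was the only mitosis gene whose window held the E2F core, with matches beginning 131 and 29 bases before the start. Its CHR matches begin 71 and 15 bases before the start. Mcm6 holds 3 E2F cores, of which the first pair overlap on opposite strands, and Rfc3 has 1 upstream match that begins 10 bases before the start. Cdk1 and Mcm5 were the only members with both an E2F core and a CHR, which 1.14% of all windows hold.

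**Figure D1:**
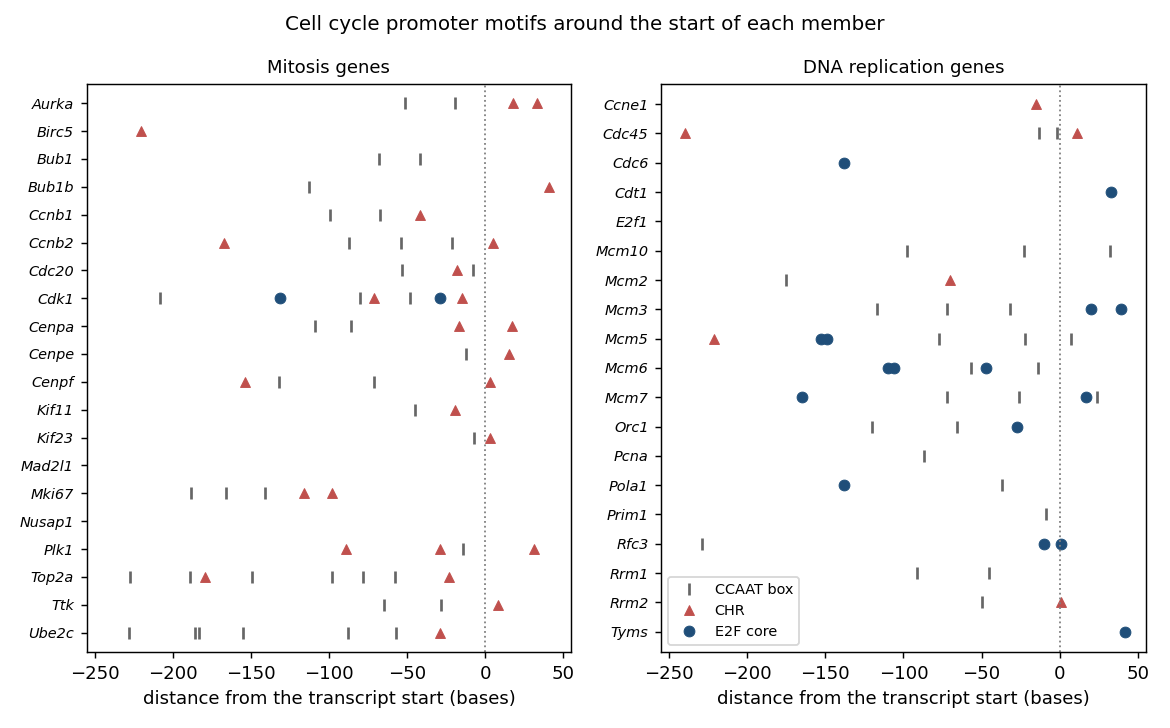
Positions of the E2F core (circles), the CHR (triangles) and the CCAAT box (bars) relative to the transcript start, in bases, for the 20 mitosis genes (left) and 19 replication genes (right) with a promoter window. Triangles stand in 17 of 20 mitosis windows and circles in 10 of 19 replication windows.

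Expected counts, the authors' estimates of reads per gene, summed to 19366343 in replicate 1 and 33728646 in replicate 2. Protein-coding genes of the nucleus, with Lars2 left out, took 36.3% of them in replicate 1 and 66.1% in replicate 2, so the members were counted at lower depth in replicate 1. The members together received 7268 counts in replicate 1 and 19065 in replicate 2, with a median of 88.5 and 236 counts a gene. Markers of the labelled tissue were present: all 8 cortex markers and all 7 chromaffin markers reached 1 TPM in both libraries, and none of 5 kidney markers did. Liver markers were present too: all 7 reached 1 TPM in replicate 1, and 1 did in replicate 2. TPM corrects for transcript length and sums over all features, so the non-coding share lowers the TPM of coding genes in replicate 1. In these tissue libraries, fewer cells of a dividing type and less RNA per cell cannot be told apart.

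Members of both classes were expressed at low to moderate levels. At a threshold of 1 TPM, 44 of 48 members were detected in both libraries. The exceptions were Ttk, Gins1, Cdc6 and Orc1. Levels spanned Pcna, with 21.6 TPM in replicate 1 and 30.5 TPM in replicate 2, down to Orc1, with 0.23 TPM in replicate 1 and 0.31 TPM in replicate 2. Pcna stood above 81.5% of the 11988 nuclear protein-coding genes detected in the gland, while Mki67 stood above 31.3% of them. The 10 highest members were the same in both libraries: Pcna, Mcm2, Mcm7, Mcm6, Mcm3, Top2a, Rrm1, Rfc3, Tyms and Rrm2, of which only Top2a belongs to mitosis. In 43 of 47 neighbouring pairs the gap in mean TPM was no larger than the larger SD of the pair. Pcna over Mcm2, Cdk1 over Mki67, Ttk over Cdc6 and Cdc6 over Orc1 were the exceptions. That SD includes the shift of TPM between the libraries, which the genes of a pair share, so it does not settle their order. With TPM rescaled over nuclear protein-coding genes, 42 of 47 pairs were within the larger SD. Those apart were Pcna over Mcm2, Mcm7 over Mcm6, Mcm6 over Mcm3, Mcm5 over Mcm4 and Cdc6 over Orc1.

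Mitosis genes stood below replication genes in both libraries. Replicate 1 gave them a median of 2.52 TPM and replicate 2 one of 3.17 TPM, against 3.34 TPM in replicate 1 and 4.54 TPM in replicate 2 for the replication genes. The difference of the class medians of log2(TPM + 0.1), mitosis minus replication, was -0.38 in replicate 1 and -0.50 in replicate 2, with a mean of -0.44 ± 0.087 (SD, n = 2). The levels of the classes overlap widely, and genes of a class are not replicates, so no test was made. Counting protein-coding transcripts alone, a setting chosen after the data were seen, brought the difference to -0.08 in replicate 1 and left it at -0.51 in replicate 2. Across the 48 members, TPM in replicate 1 and replicate 2 correlated at Pearson's r = 0.954 and Spearman's rho = 0.939, as a description over genes of the same libraries.

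**Figure D2:**
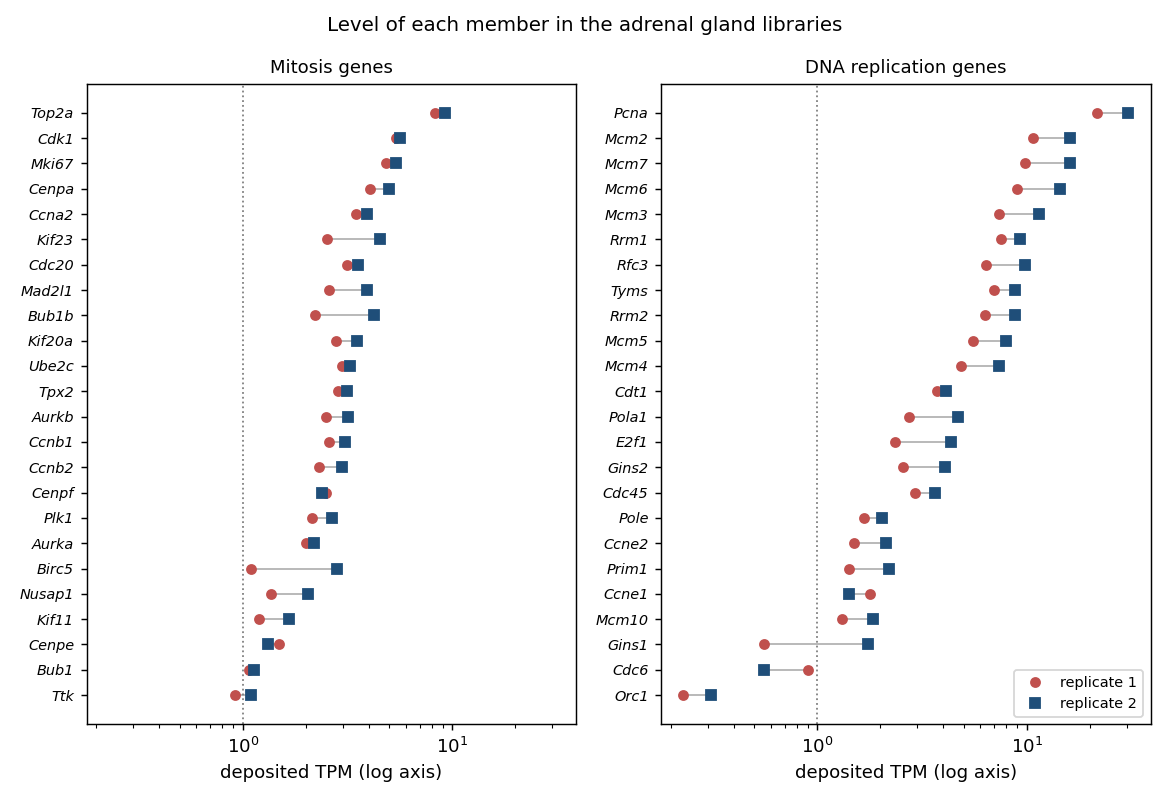
Deposited TPM of each member in replicate 1 (circles) and replicate 2 (squares) on a log axis, mitosis genes left and replication genes right, ordered by mean. The dotted line marks 1 TPM. Pcna leads at 21.6 and 30.5 TPM, and Orc1 is lowest at 0.23 and 0.31 TPM.

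Top2a stood highest among the mitosis genes, and Mki67 followed Cdk1. Top2a, the topoisomerase that untangles sister chromatids, had 8.25 TPM in replicate 1 and 9.28 TPM in replicate 2. Mki67, whose product Ki-67 coats mitotic chromosomes and is the common histological marker of cycling cells, had 4.84 TPM in replicate 1 and 5.39 TPM in replicate 2. It also had the most counts of any member, 789 in replicate 1 and 1690 in replicate 2. Both were slightly higher in TPM in replicate 2, and the ratio of Mki67 to Top2a was 0.584 ± 0.0041 in the gene tables and 0.695 ± 0.14 in the second quantification (SD, n = 2).

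Cdk1 and its cyclins form the kinase that starts mitosis. Cdk1 had 5.39 TPM in replicate 1 and 5.63 TPM in replicate 2. Ccna2, the cyclin of S phase and mitotic entry, had 3.47 TPM in replicate 1 and 3.91 TPM in replicate 2. The cyclins B stood lower: Ccnb1 had 2.57 TPM in replicate 1 and 3.08 TPM in replicate 2. Ccnb2 had 2.30 TPM in replicate 1 and 2.98 TPM in replicate 2. Levels of Ccnb1 and Ccnb2 were close in both libraries, at a ratio of 1.12 in replicate 1 and 1.03 in replicate 2. Cdk1 exceeded Ccnb1 by 1.96 ± 0.19-fold (SD, n = 2).

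The mitotic kinases fell between 0.92 and 3.18 TPM. Aurkb, the Aurora kinase of the chromosomal passenger complex, had 2.49 TPM in replicate 1 and 3.18 TPM in replicate 2. Aurka, which acts at centrosomes and the spindle, was below Aurkb in both, with 2.01 TPM in replicate 1 and 2.20 TPM in replicate 2. Plk1, which acts at centrosomes and kinetochores, had 2.14 TPM in replicate 1 and 2.66 TPM in replicate 2. Ttk, the MPS1 kinase of the spindle checkpoint, was the lowest of the mitosis genes, with 0.92 TPM in replicate 1 and 1.10 TPM in replicate 2.

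At the centromere, Cenpa, the histone H3 variant that marks it, had 4.03 TPM in replicate 1 and 4.97 TPM in replicate 2. Cenpf, a large kinetochore protein, had 2.51 TPM in replicate 1 and 2.38 TPM in replicate 2. Cenpe, a kinetochore motor, had 1.49 TPM in replicate 1 and 1.32 TPM in replicate 2. Cenpf and Cenpe were the only mitosis genes whose deposited TPM was higher in replicate 1. Birc5, survivin, the passenger partner of Aurkb, went the other way, with 1.09 TPM in replicate 1 and 2.81 TPM in replicate 2. It rested on 17 counts in replicate 1 and 91 counts in replicate 2.

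Checkpoint genes hold the cell until chromosomes are attached, and Cdc20 and Ube2c then act with the anaphase-promoting complex. Bub1b had 2.22 TPM in replicate 1 and 4.21 TPM in replicate 2, whereas its relative Bub1 had 1.07 TPM in replicate 1 and 1.13 TPM in replicate 2. Their ratio therefore varied, at 2.07 in replicate 1 and 3.73 in replicate 2. Mad2l1 had 2.57 TPM in replicate 1 and 3.90 TPM in replicate 2. Cdc20 had 3.14 TPM in replicate 1 and 3.55 TPM in replicate 2. Ube2c had 2.97 TPM in replicate 1 and 3.26 TPM in replicate 2. All 5 were lower in TPM in replicate 1, with the widest gaps for Bub1b and Mad2l1. This was not particular to them: only 4 members, Cenpe, Cenpf, Cdc6 and Ccne1, had a higher deposited TPM there. Rescaled over nuclear protein-coding genes, the 5 summed to 57.9 TPM in replicate 1 and 47.4 TPM in replicate 2. On that scale Bub1b alone stayed lower in replicate 1, with 10.7 TPM against 12.4 TPM in replicate 2.

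Among the spindle genes, Kif23, a motor of the central spindle, had 2.53 TPM in replicate 1 and 4.53 TPM in replicate 2. Kif20a, needed for cytokinesis, had 2.80 TPM in replicate 1 and 3.53 TPM in replicate 2. Tpx2, the activator of Aurora A, had 2.84 TPM in replicate 1 and 3.16 TPM in replicate 2. The 2 remaining genes were low: Nusap1, a microtubule-binding protein, had 1.36 TPM in replicate 1 and 2.05 TPM in replicate 2. Kif11, the motor that pushes spindle poles apart, had 1.19 TPM in replicate 1 and 1.67 TPM in replicate 2. All 5 were lower in TPM in replicate 1, as were most members. Rescaled over nuclear protein-coding genes, they summed to 51.8 TPM in replicate 1 and 44.2 TPM in replicate 2. On that scale Kif23 alone stayed lower in replicate 1, with 12.2 TPM against 13.4 TPM in replicate 2.

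The MCM2-7 helicase had the highest median of the replication groups, 8.19 TPM in replicate 1 and 12.9 TPM in replicate 2. Mcm2 had 10.7 TPM in replicate 1 and 16.0 TPM in replicate 2. Mcm7 had 9.81 TPM in replicate 1 and 16.1 TPM in replicate 2. Mcm6 had 9.0 TPM in replicate 1 and 14.5 TPM in replicate 2. The other subunits followed in the same order in both libraries. Mcm3 had 7.38 TPM in replicate 1 and 11.4 TPM in replicate 2. Mcm5 had 5.53 TPM in replicate 1 and 7.98 TPM in replicate 2. Mcm4 had 4.87 TPM in replicate 1 and 7.34 TPM in replicate 2. The proteins form a ring with 1 copy of each, whereas the transcripts spanned a factor of 2.20 in replicate 1 and 2.19 in replicate 2 between the highest and lowest subunit. In the second quantification the span was 3.32-fold in replicate 1 and 3.03-fold in replicate 2, and the ratio of Mcm2 to Mcm4 was 2.69 ± 0.89, against 2.19 ± 0.011 in the gene tables (SD, n = 2).

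Origin licensing genes had the lowest median, 0.90 TPM in replicate 1 and 0.56 TPM in replicate 2. Cdt1, the MCM loading factor, had 3.73 TPM in replicate 1 and 4.11 TPM in replicate 2. Cdc6, which loads the helicase with it, had 0.90 TPM in replicate 1 and 0.56 TPM in replicate 2, from 47 and 55 counts. Orc1, a subunit of the origin recognition complex, rested on 11 counts in replicate 1 and 27 counts in replicate 2. Cdc6 and Orc1 thus stayed under 1 TPM in both libraries in the gene tables. In the second quantification Cdc6 had 1.23 TPM in replicate 1 and 1.09 TPM in replicate 2. Cdt1 was 1.42 times as abundant as Gmnn, its inhibitor geminin, in replicate 1 and 0.860 times in replicate 2, so the gene tables put the pair in opposite order in the libraries. In the second quantification Gmnn was the higher in both, at ratios of 0.629 in replicate 1 and 0.757 in replicate 2.

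Helicase activation genes were of low to middle level. Cdc45, part of the active helicase, had 2.94 TPM in replicate 1 and 3.66 TPM in replicate 2. Gins2, a subunit of the GINS complex, had 2.56 TPM in replicate 1 and 4.07 TPM in replicate 2. Its partner Gins1 had 0.56 TPM in replicate 1 and 1.74 TPM in replicate 2, from 9 and 54 counts. Mcm10, an initiation factor, had 1.31 TPM in replicate 1 and 1.85 TPM in replicate 2. All 4 were lower in TPM in replicate 1, as were most members, and Gins2 to Gins1 ranged widely, at 4.57 in replicate 1 and 2.34 in replicate 2. Rescaled over nuclear protein-coding genes, the 4 summed to 35.6 TPM in replicate 1 and 33.5 TPM in replicate 2. On that scale Gins1 alone stayed lower in replicate 1, with 2.71 TPM against 5.14 TPM in replicate 2.

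At the fork, Pcna, the sliding clamp, exceeded Mcm2 by 1.96 ± 0.081-fold (SD, n = 2). Rfc3, a subunit of the clamp loader, had 6.40 TPM in replicate 1 and 9.81 TPM in replicate 2. In gene TPM the polymerases were lower. Pola1, the catalytic subunit of polymerase alpha, had 2.75 TPM in replicate 1 and 4.72 TPM in replicate 2. Its primase partner Prim1 had 1.42 TPM in replicate 1 and 2.19 TPM in replicate 2. Pole, the leading-strand polymerase, had 1.68 TPM in replicate 1 and 2.04 TPM in replicate 2. On protein-coding transcripts Rfc3 held 1.61 TPM in replicate 1 and 4.39 TPM in replicate 2, against 2.09 and 3.95 for Pola1. On that measure Rfc3 was therefore below Pola1 in replicate 1 and above it in replicate 2.

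Nucleotide supply genes were close to each other in gene TPM, but not on protein-coding transcripts. Rrm1, the large subunit of ribonucleotide reductase, had 7.57 TPM in replicate 1 and 9.29 TPM in replicate 2. Rrm2, its small subunit, had 6.31 TPM in replicate 1 and 8.79 TPM in replicate 2, close to Rrm1 at a ratio of 1.2 in replicate 1 and 1.06 in replicate 2. The second quantification gave 1.76 in replicate 1 and 1.3 in replicate 2. Tyms, thymidylate synthase, had 6.94 TPM in replicate 1 and 8.75 TPM in replicate 2. On protein-coding transcripts Tyms held 1.19 TPM in replicate 1 and 1.74 TPM in replicate 2, against 5.96 and 8.57 for Rrm1. Of the G1/S regulators, E2f1 had 2.36 TPM in replicate 1 and 4.36 TPM in replicate 2. Ccne1, a cyclin E partner of Cdk2, had 1.78 TPM in replicate 1 and 1.42 TPM in replicate 2. Ccne2, the other cyclin E, had 1.49 TPM in replicate 1 and 2.14 TPM in replicate 2, so the gene tables put the cyclins E in opposite order in the libraries. In the second quantification Ccne2 was the higher in both, at a ratio of Ccne1 to Ccne2 of 0.583 in replicate 1 and 0.560 in replicate 2.

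Transcript type differed among members at a similar gene level. Most of the TPM lay on protein-coding transcripts, with a median share over all members of 85.7% in replicate 1 and 86.2% in replicate 2. Under 50% lay there in both libraries for 6 members: Cenpa, Kif23, Mcm10, Tyms, Gins2 and Rfc3. Cenpa was mainly assigned to a nonsense-mediated decay transcript, Cenpa-202, which held 55.8% of its TPM in replicate 1 and 42.5% in replicate 2. Its protein-coding transcripts held 19.8% in replicate 1 and 4.83% in replicate 2. Tyms likewise led with a decay transcript, Tyms-205, at 44.0% in replicate 1 and 33.5% in replicate 2, and its coding share was 17.1% in replicate 1 and 19.9% in replicate 2. Gins2 was mostly on a retained-intron transcript of 511 bases, Gins2-204, at 64.0% in replicate 1 and 67.9% in replicate 2.

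The second quantification placed some of these differently. For Tyms it put 36.8% on Tyms-205 in replicate 1 and 14.9% in replicate 2, and for Cenpa it put 34.3% on Cenpa-202 in replicate 1 and 13.3% in replicate 2. For Gins2-204 it gave 57.7% in replicate 1 and 56.6% in replicate 2, close to the gene tables' source. Mcm10 moved between retained-intron transcripts, with 42.7% on Mcm10-204 in replicate 1 and 44.8% on Mcm10-209 in replicate 2. Mcm10 rested on 37 counts in replicate 1 and 130 counts in replicate 2. The coding share also depended on the quantification. For Rfc3 the second gave 26.1% in replicate 1 and 75.0% in replicate 2, and for Tyms 34.9% in replicate 1 and 63.8% in replicate 2. For Pcna it gave 52.6% in replicate 1 and 55.6% in replicate 2, against 96.5% and 95.2% in the first.

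**Figure D3:**
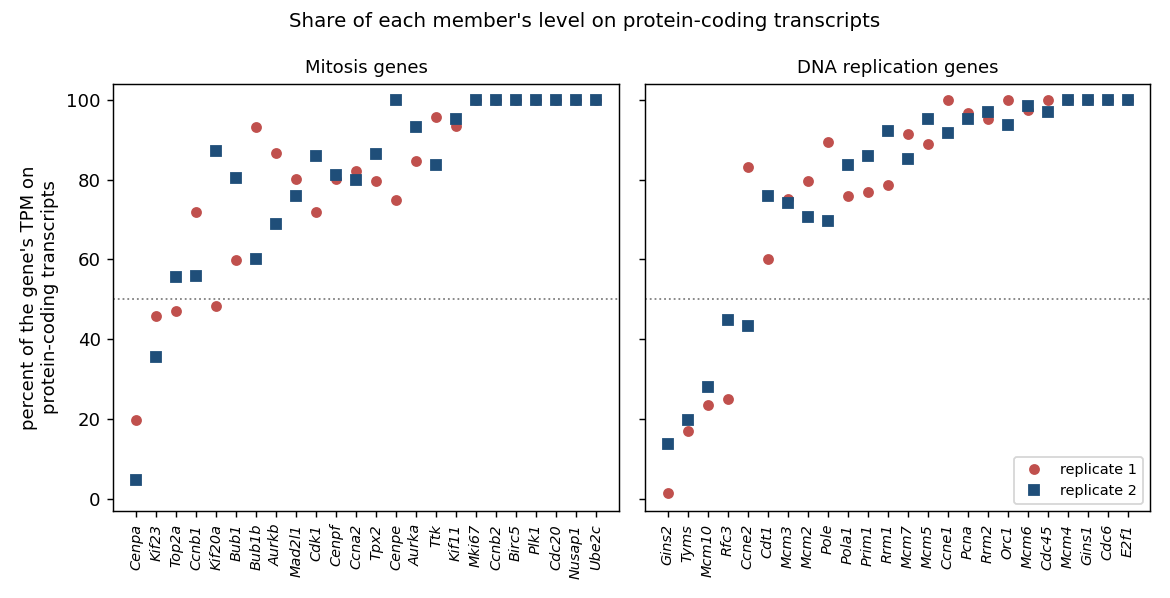
Percent of each member's TPM on protein-coding transcripts in replicate 1 (circles) and replicate 2 (squares), mitosis genes left and replication genes right, ordered by mean. The dotted line marks 50%. Cenpa, Kif23, Gins2, Tyms, Mcm10 and Rfc3 lie under it in both libraries.

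The libraries were then compared gene by gene, as log2 of the TMM-scaled expected count in replicate 1 over replicate 2. An exact conditional binomial test, two-sided, covers counting error only and compares these libraries, not conditions. It was run for the 11542 genes whose mean count reached 100, with Benjamini-Hochberg adjustment over all of them and genes at an adjusted p of 0.05 or less were called. Of the 48 members, 34 were tested and 14 fell under the count minimum: Ccnb2, Aurka, Birc5, Bub1, Ube2c, Ttk, Mcm10, Gins1, Gins2, Cdc6, Ccne1, Ccne2, Orc1 and Prim1.

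With TMM scaling, the mitosis genes leaned to replicate 1 more than the replication genes did. Of the 18 mitosis genes tested, 11 were called higher in replicate 1. Of the 16 replication genes tested, 3 were, and over all genes tested 15.7% were. No member was called lower in replicate 1, where 17.6% of all genes tested were. A higher scaled count in replicate 1 was found for 18 of 18 mitosis genes and 12 of 16 replication genes, beside 45.0% of all genes tested. Over all 24 genes of each class, filtered or not, 23 mitosis and 17 replication genes were higher. No tested member was 2-fold apart, as 1.32% of all genes tested were.

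The median log2 ratio was 0.51 over all 24 mitosis genes and 0.20 over all 24 replication genes, against -0.03 over all genes tested. Over tested genes alone it was 0.52 for mitosis and 0.16 for replication, a difference of 0.36 that does not depend on how the libraries are scaled. The ratios themselves do: over all 24 genes, the medians for mitosis and replication were 0.38 and 0.07 with spike-in scaling and turned to -0.36 and -0.67 with total counts. With ERCC spike-in counts as the scale, the median of all genes was -0.16 and 8 members were called higher and 1, Pola1, lower. Cdk1, Aurkb, Plk1, Cdc20, Pcna and Rrm1 lost their calls there. In the second quantification Cenpe lost its call, Kif20a was called higher and Pola1 lower. With total counts it was -0.91, no tested member was called higher and 29 were called lower. Of all calls, 47.2% were higher in replicate 1 with TMM, 16.7% with the spike-ins and 0.828% with total counts.

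Mki67 was the most firmly separated member, at a log2 ratio of 0.58 (1.5-fold, 95% interval 1.38 to 1.63, adjusted p = 2.34e-18 in the exact binomial test). Cenpf followed at 0.59 with an adjusted p of 6.87e-07 in the same exact test, and Top2a at 0.40 with 8.20e-05. The other mitosis genes called were Ccnb1 at 0.72, Plk1 and Aurkb at 0.59 each, Ccna2 at 0.58, Cdc20 at 0.56, Cdk1 at 0.54, Tpx2 at 0.53 and Cenpe at 0.52. They cover chromosome structure, cyclins, kinases, kinetochore and spindle. Tested but not called were Cenpa, Bub1b, Kif20a, Kif23, Kif11, Mad2l1 and Nusap1, with log2 ratios between 0.12 and 0.38. Birc5 was the only mitosis gene below 0, at -0.72 without a test, and its 95% counting interval of the fold ran between 0.335 and 1.01.

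Among the replication genes, Mcm2 was called at 0.34 (adjusted p = 1.62e-04 in the exact test), Pcna at 0.26 and Rrm1 at 0.24. The rest of the MCM ring lay near 0: Mcm5 at 0.13, Mcm7 at 0.10, Mcm3 at 0.09, Mcm6 at 0.02 and Mcm4 at -0.03. Pola1 at -0.17, Rfc3 at -0.14 and E2f1 at -0.14 were below 0 and not called. Cdc6 had the widest ratio of any member, at 1.43, and its 95% counting interval of the fold ran from 1.82 to 4.13. At 47 counts in replicate 1 and 55 in replicate 2 it was under the count minimum and was not tested. Ccne2 at 0.98 and Ccne1 at 0.69 also lay high without a test, and their intervals also stayed above 1. Gins1 at -0.86, Gins2 at -0.22 and Mcm10 at -0.13 were the untested replication genes below 0, with intervals that included 1.

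**Figure D4:**
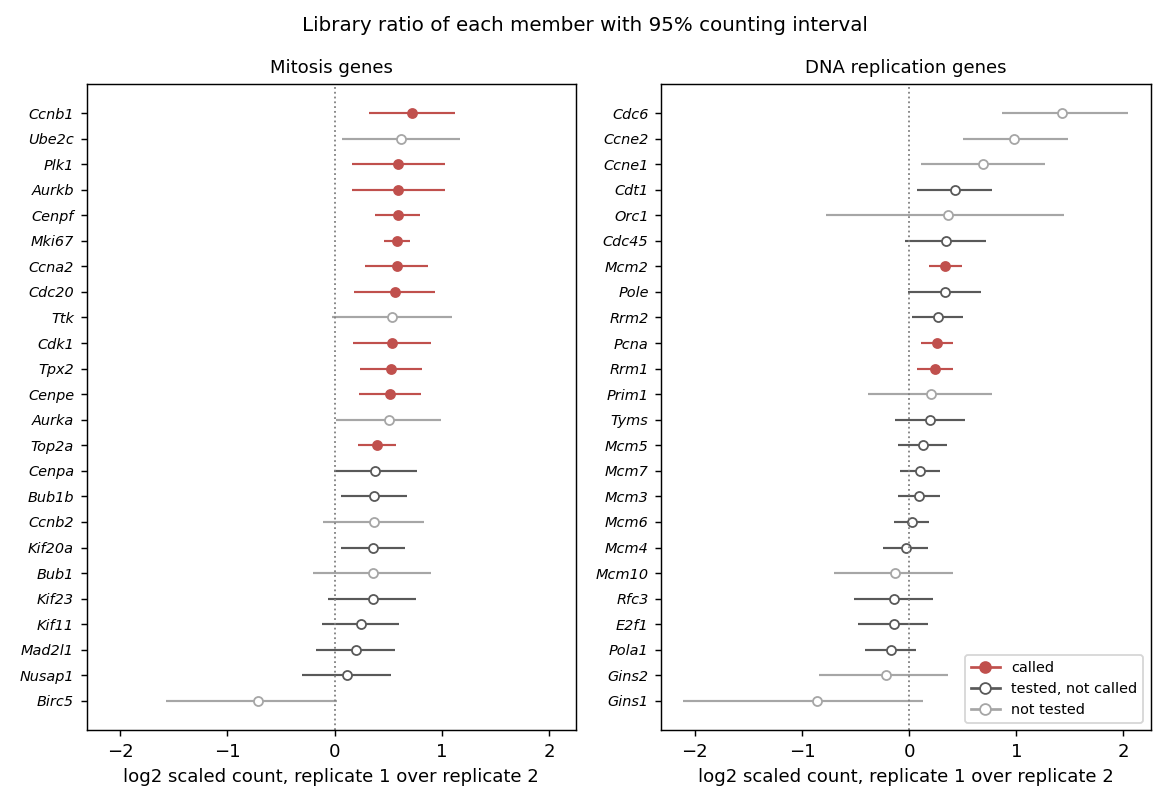
Log2 ratio of scaled counts, replicate 1 over replicate 2, for each member with its 95% counting interval, mitosis genes left and replication genes right. Filled red points were called, open dark points were tested and not called, open light points were not tested. With TMM scaling all mitosis genes but Birc5 lie right of 0, and with total counts 0 of them would.

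The further genes of both pathways were read in the same way. Their lists were also chosen with earlier results of these data known. Of 49 further mitosis genes, 42 had a higher scaled count in replicate 1, with a median log2 ratio of 0.32, which was 0.19 with spike-in scaling and turned to -0.56 with total counts. Of the 23 tested, 8 were called higher and none lower, beside 15.7% of all genes tested called higher and 17.6% called lower. Ckap2, a spindle protein, reached 0.76, and Aspm, of the spindle poles, 0.64. Of 37 further replication genes, 15 were higher, with a median of -0.04, near that of all genes tested, and of the 29 tested 2 were called higher and 3 lower. Those called higher were Clspn, the checkpoint adaptor claspin, at 0.63, and Uhrf1, which maintains DNA methylation, at 0.42. Those called lower were Pold1, the catalytic subunit of polymerase delta, at -0.44, Timeless at -0.42 and Rfc1 at -0.20.

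The E2F, RB and MuvB genes were called about as often as all genes tested. Over all genes tested, 15.7% were called higher in replicate 1 and 17.6% lower. Of 19 genes of the E2F, RB and MuvB groups, 16 were tested, of which 3 were called higher in replicate 1 and 3 lower, with a median ratio of 0.07 over all 19. Foxm1, the G2/M activator, was the highest at 0.63, with 2.55 TPM in replicate 1 and 2.29 TPM in replicate 2. Tfdp2, an E2F partner, was the lowest at -0.26. Of 7 CDK inhibitors, 5 were tested, of which 1 was called higher in replicate 1 and 3 lower. Cdkn1a, p21, was called higher at 1.51 on the log2 scale, with 4.92 TPM in replicate 1 and 2.92 TPM in replicate 2. Cdkn1b, p27, was called lower at -0.62, with 11.0 TPM in replicate 1 and 29.6 TPM in replicate 2. Cdkn1c, p57, was the most abundant of them, with 141 TPM in replicate 1 and 298 TPM in replicate 2. It was called lower at -0.28, and Cdkn2d was called lower at -0.54.

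**Figure D5:**
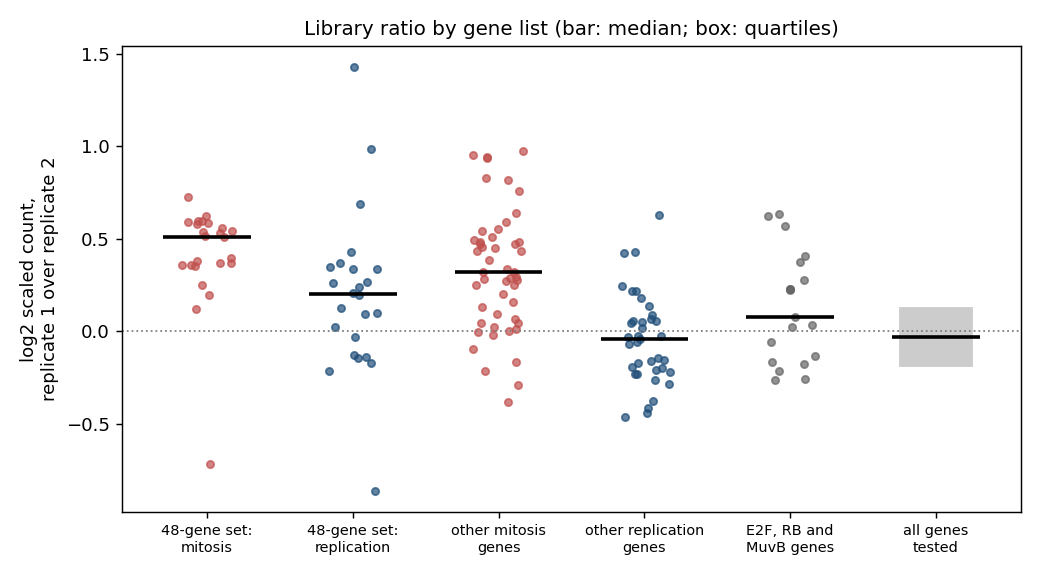
Log2 ratio of scaled counts, replicate 1 over replicate 2, of every gene in each list (points, spread sideways for legibility), with the list median (black bar). The grey box spans the quartiles of all genes tested. Medians are 0.51 and 0.20 for the mitosis and replication members, 0.32 and -0.04 for other mitosis and replication genes and 0.07 for the E2F, RB and MuvB genes.

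Liver markers also moved with replicate 1. All 7 were called higher there, at log2 ratios between 7.10 and 8.89. For this and the next lists, the shares over all genes tested were 15.7% called higher and 17.6% called lower. Their summed level reached 200.2 TPM in replicate 1 but 3.83 TPM in replicate 2, and none was at 0 counts. Of 6 adipocyte markers, 5 were called higher in replicate 1 and 1 lower, with a median ratio of 0.32 and the highest value for Ucp1 at 0.91. They summed to 716 TPM in replicate 1 and 894 TPM in replicate 2, with none at 0 counts. Of 5 fibroblast markers, 3 were called higher and none lower, with a median of 0.14 and the highest value for Col1a1 at 0.72. They summed to 105.6 TPM in replicate 1 and 124 TPM in replicate 2, with none at 0 counts. The part of these cell types in the ratios of the mitosis genes was not tested. Lymphocyte markers summed to 1.52 TPM in replicate 1 and 3.23 TPM in replicate 2, with 2 of 6 at 0 counts in replicate 1. The log2 ratio of their summed scaled counts was -0.32, with a 95% counting interval between -0.74 and 0.08, and the only gene of that list tested was not called. The cortical progenitor and capsule markers had a median ratio of 0.13 over 8 genes, with 2 called higher and 1 lower of 6 tested. Of 7 chromaffin markers, 2 were called higher and 5 lower, with a median of -0.16. Of 8 cortex markers, 2 were called higher and 3 lower, with a median of -0.03. Endothelial markers had 0 called higher and 1 lower of 6, and macrophage markers 1 higher and 0 lower of 5 tested. Of 4 erythroid markers tested, 3 were called higher and 1 lower.

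Near-identical copies and overlapping genes bear on some members. At least 90% identity over 200 bases or more was found between 16 members and 24 annotated pseudogene copies. Only 2 copies held over 10 counts. Pcna-ps2 received 43.4 counts in replicate 1 and 78.8 in replicate 2, beside 495 and 1328 for Pcna. Gm5487, a copy of Mcm7, received 23.4 counts in replicate 1 and 31.9 in replicate 2, beside 315 and 943 for Mcm7. In the second quantification Gm8956, a copy of Ube2c at 0 counts in the gene tables, received 24.7 counts in replicate 1 and 61.5 in replicate 2. Reads of these pairs could be split either way, so their values are less certain. Exons of 12 members overlap a gene on the opposite strand. The kit keeps strand, but whether counting used it is not stated in the sources used here. The largest overlap was 2758 bases between Gins2 and Gse1, which had 626 counts in replicate 1 and 2330 in replicate 2, against 31 and 116 for Gins2. Kif20a shares 1271 bases with Cdc23, Ccne2 609 bases with Ints8 and Ccna2 510 bases with Exosc9.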

How the data were processed

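The members and the other lists were chosen with earlier results of these data known. Per the notes deposited beside the files, reads were quantified on mouse build mm10 with GENCODE M21, while the program, its version and its use of strand are, in the sources used here, not given. The 3 kinds of table per library were all used. The authors deposited expected counts, estimated reads per gene or transcript, and TPM, scaled over genes, tRNA entries and spike-ins. The first transcript tables state what percent of the gene each transcript makes up, per the file headers. The gene tables also give, per the file headers, interval bounds of TPM, which are not printed here. The second transcript tables come from another quantification and were summed per gene.

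Counts were rounded and scaled with TMM (edgeR 4.0.16, R 4.3.3), and ratios carry a prior of 1 count. With 1 group of 2 libraries no model could be fitted, and an exact permutation test of 2 against 2 values, two-sided, cannot go below 0.333. An exact conditional binomial test compared the libraries for genes whose mean count reached 100, and was tested on simulated data. Intervals are exact Clopper-Pearson intervals at 95% and cover counting error only, since no molecular identifiers are stated and reads may share a molecule. DESeq2 1.42.0 gave alternative size factors. Copies were sought with BLAST+ 2.17.0, at 90% identity or more over at least 200 bases. Tables were handled with pandas 2.3.3 in Python 3.11.15, tests with scipy 1.17.1 and numpy 2.4.6, and figures with matplotlib 3.10.9. All 48 members could be named, and of the other lists the genes with the highest or lowest TPM and the most extreme ratios. Other alternatives were other scalings, filters, thresholds, pseudocounts and the second tables.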

Additional observations from a re-analysis of the deposited data

How the results depend on the processing

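Scaling by total counts, which the non-coding share of replicate 1 enters, turned the sign of the median library ratios. Over tested genes alone they became -0.36 for the mitosis genes and -0.72 for the replication genes. Of the 34 tested members, this scaling made 0 higher, 0 called higher and 29 called lower, with 3 of them 2-fold apart. Under it 30 tested members turned sign: Mki67 to -0.30, Top2a -0.49, Ccnb1 -0.15, Ccna2 -0.30, Cdk1 -0.34, Aurkb -0.28, Bub1b -0.51, Mad2l1 -0.68, Plk1 -0.28, Cdc20 -0.32, Cenpa -0.50, Cenpe -0.36, Cenpf -0.29, Kif11 -0.63, Kif20a -0.52, Kif23 -0.52, Tpx2 -0.35, Nusap1 -0.76, Mcm2 -0.54, Mcm3 -0.79, Mcm5 -0.75, Mcm6 -0.86, Mcm7 -0.78, Pcna -0.62, Rrm1 -0.64, Rrm2 -0.61, Tyms -0.68, Cdt1 -0.45, Cdc45 -0.53 and Pole -0.54. All genes called were then 94 higher and 11258 lower, against 1811 and 2028 with TMM. Spike-in scaling gave medians over tested genes of 0.39 and 0.032, 8 members called higher and 1 lower, and 886 and 4432 genes called. DESeq2 size factors and the sum over coding genes changed no call of a member. The second tables gave a replication median over tested genes of 0.094 and 1 member called lower. Without the filter, or at a mean count of at least 10, 1 member, Cdc6, was 2-fold apart. Median levels were 4.19 TPM for mitosis and 6.47 TPM for replication genes in the second tables, 10.8 and 14.8 when rescaled over coding genes, and 2.32 and 2.96 on protein-coding transcripts alone. The class difference in level was -0.56 in the second tables, -0.35 with a pseudocount of 1, -0.80 for members at 1 TPM or more and -0.30 on protein-coding transcripts. Second tables gave ratios of 1.43 for Ccna2 to Ccnb1, 0.608 for Aurka to Aurkb, 2.46 for Cenpf to Cenpe, 0.695 ± 0.14 for Mki67 to Top2a, 1.53 for Rrm1 to Rrm2, 2.69 for Mcm2 to Mcm4, 0.693 for Cdt1 to Gmnn and 2.55 for Pcna to Mcm2. The cause of these changes was not tested. Without either replicate, the class difference in level ranged between -0.50 and -0.38, medians between 2.52 and 3.17 TPM for mitosis and 3.34 and 4.54 TPM for replication, and detected members between 44 and 46. Library ratios need both libraries, so none exists without one. No paired analysis was possible because there is 1 group. Depth limits the 14 members under the count minimum, and counting error alone underlies each p.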

Other observations

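The D-type cyclins and Cdk4 stood above every cyclin described above. Cdk6 was lower than these but above Ccna2, which had 3.47 TPM in replicate 1 and 3.91 TPM in replicate 2. Ccnd3, cyclin D3, had 90.2 TPM in replicate 1 and 127 TPM in replicate 2. Ccnd2, cyclin D2, had 48.9 TPM in replicate 1 and 123 TPM in replicate 2. Cdk4, their kinase partner, had 45.9 TPM in replicate 1 and 81.4 TPM in replicate 2. Cdk6, the related kinase, had 4.01 TPM in replicate 1 and 8.90 TPM in replicate 2. Of the 6 genes of this list, 3 were called higher in replicate 1, Ccnd1, Ccnd2 and Ccnd3, at log2 ratios of 0.13, 0.06 and 0.21, and Cdk6 was called lower at -0.51, by the exact binomial test, beside 15.7% of all genes tested called higher and 17.6% called lower. The median over the list was 0.01 with TMM scaling and -0.12 with spike-in scaling, which left 2 of 6 genes higher in replicate 1.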
